A study of Homo sapiens with 3 samples.

Results

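Antisense RNAs are transcripts that the annotation places on the strand opposite another gene, and 149 of them were compared between the Flag and the IgG library of a MEX3A RNA immunoprecipitation. They were chosen by their counts, as all rows of both gene tables with the gene type antisense and at least 20 expected counts summed over the Flag and IgG libraries, out of 5276 antisense rows and 57820 rows in all. The minimum was met by 10796 genes of any type. Because the sum over both libraries chose the members, an RNA with few IgG counts entered only where its Flag count was high: 118 members had at least 20 Flag counts and 32 at least 20 IgG counts. Counts and medians over the members are therefore given as descriptions.

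Antisense transcripts often start close to the promoter of a coding gene and run away from it, or run through the coding gene on the other strand. Some act in cis on the neighbouring gene, some pair with the sense mRNA or host small RNAs, and many have no known function. MEX3A, of a family related to the C. elegans translational repressor MEX-3, binds RNA through KH domains and carries a RING finger.

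The cells were of the established human line ACHN, from a renal cell carcinoma, with stable overexpression of Flag-tagged MEX3A in every sample. RNA-protein complexes were fixed with formaldehyde and precipitated with an anti-Flag antibody (Flag, 1 library) or with IgG (IgG, 1 library), so both precipitates come from cells that carry the tagged protein. An input sample is labelled as well and was not analysed here, so each ratio sets the Flag against the IgG precipitate and not against the RNA in the cells. With 1 library per group there is no replicate check and no p-value.

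The libraries held 5498124 counts (Flag) and 3412864 counts (IgG). Of 13 renal epithelial markers, 10 reached 10 counts in Flag and 10 in IgG, and AQP1 had 0 in both. Among markers of other cells, PTPRC, CD3E, HBB and ALB had 0 counts in both libraries, while CD68 had 30 Flag counts against 13 IgG counts and COL1A1 had 875 Flag counts against 637 IgG counts. Levels are CPM, the count as a share of its library's total, except where the authors' TPM, which accounts for length, is named. A ratio is Flag CPM over IgG CPM with an exact 95% interval. The interval covers the counting error of reads only and leaves out variation between precipitates. Even for counting error it may be too narrow, since reads amplified by PCR without molecular identifiers are not independent molecules. An RNA was called enriched where the interval lay wholly above 2 and depleted where it lay wholly below 0.5. The strand setting of the counting is not given in the sources used here, so reads of an antisense RNA and of a gene that it overlaps cannot be told apart.

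Of the 149 antisense RNAs, 47 were enriched (31.5%), 4 were depleted (2.68%) and 98 were neither. Over all 10796 genes the enriched share was 28.7% and the depleted share 1.32%, so the enriched share of the antisense RNAs was near the background and is no result about them as a class. The call depends on counts, and their median was 37.3 counts against 118 over all genes. At 20 to 30 counts 29.1% were enriched against 14.0% of all genes, at 30 to 60 counts 17.8% against 16.1%, and at 60 or more 46.9% against 34.2%. These differences were not tested. The median log2 ratio of the antisense RNAs, 1.24 (quartiles 0.38 and 2.34), stood against 0.95 over all genes (quartiles 0.10 and 1.88). Their ratio was above 1 for 128 and below 1 for 21, and the interval lay above 1 for 84, below 1 for 9 and reached 1 for 56. Over all 10796 genes the ratio was above 1 for 8428 and below 1 for 2368. The interval lay above 1 for 6277 of these, below 1 for 971 and reached 1 for 3548, so most genes of any type leaned the same way. With TMM scaling, a log2 shift of -0.78 for every gene, 22 antisense RNAs were enriched and 6 depleted, so that 78.6% of the called ones were enriched, against 92.2% of them with total counts. The shares of the members were then 14.8% enriched and 4.03% depleted, beside 12.0% and 6.13% of all genes, so the depleted share lay above that of all genes with total counts and below it with TMM scaling.

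The 152 lincRNAs had a median log2 ratio of 1.34, with 28.3% enriched, the 65 processed transcripts had 0.50, with 16.9% enriched, and the 10184 protein-coding genes had 0.94, with 28.8% enriched. The call rests in part on the filter: 14 antisense RNAs had 0 IgG counts, and any such RNA that meets the minimum is called, since 20 counts against 0 already give a lower bound of 3.06. Of the other 135, 33 were enriched (24.4%), and of the 10630 genes of any type with IgG counts 27.6% were. None of the 149 had 0 Flag counts.

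**Figure D1:**
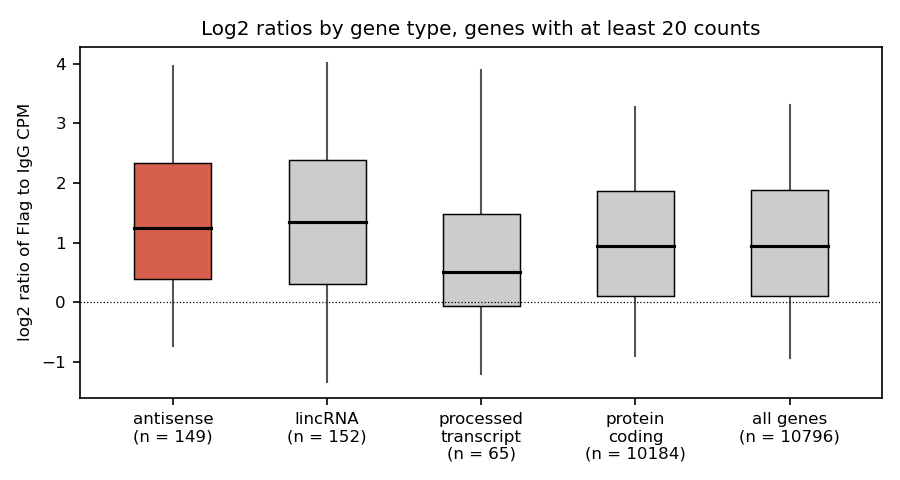
Log2 ratio of Flag to IgG CPM (vertical axis) for genes with at least 20 counts, by gene type. Boxes span the quartiles, the bar is the median and the lines run from the 5th to the 95th percentile; the antisense median of 1.24 lies between those of protein-coding genes (0.94) and lincRNAs (1.34), and the boxes overlap.

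By name, 83 antisense RNAs carry only a clone name, of which 29 were enriched and 2 depleted. A further 51 are named for a gene, of which 16 were enriched and 0 depleted. The remaining 14 with symbols of their own had 2 enriched and 2 depleted, and 1 LINC gene was neither. Across the 149 RNAs, which share both libraries and their depth, the log2 ratio had a Spearman correlation of -0.06 with length and of -0.02 with the counts summed over both libraries. Counts were whole, within 0.01, for 77 members and fractional for 72, for which reads were divided with other genes. The enriched were 24 of the whole and 23 of the fractional ones.

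**Figure D2:**
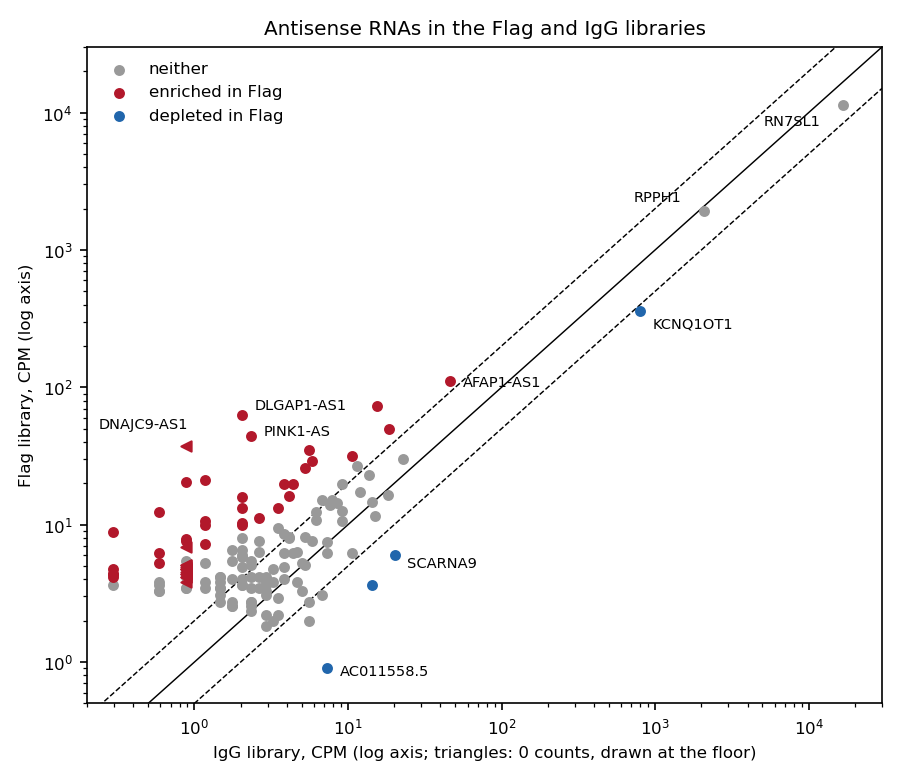
Level of each of the 149 antisense RNAs in the Flag library (vertical, CPM, log axis) against the IgG library (horizontal, CPM, log axis), 1 point per RNA. The solid line marks equal levels, the dashed lines 2-fold higher and lower, and triangles mark the 14 RNAs with 0 IgG counts, drawn at the floor of 0.879 CPM; RN7SL1 and RPPH1 lie far above the rest in both libraries.

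The next question was whether an antisense RNA went with its sense mRNA. For 36 of the 51 members named for a gene the sense gene also reached 20 counts. Sense gene here means the gene in the antisense RNA's name, whether or not the 2 overlap. In RefSeq some of these RNAs, such as WAC-AS1 and TMCC1-AS1, overlap no coding gene, and DNAJC9-AS1 overlaps MRPS16 and not DNAJC9. The ratios were compared as an odds ratio, the antisense ratio over the sense ratio with an exact interval, which does not depend on how the libraries are scaled. The antisense RNA was the higher of the pair in 10 (27.8% of pairs), the lower in 5 (13.9%) and neither in 21. In 16 pairs both counts were whole, of which 4 had the antisense RNA higher and 3 lower. Both RNAs were enriched in 5 pairs, the antisense RNA alone in 7 and the sense mRNA alone in 5. Thus 12 of the 36 antisense RNAs and 10 of the 36 sense mRNAs were enriched, beside 28.7% of all genes. Whether the 2 calls went together was not tested. The median log2 ratio was 1.10 for the antisense RNAs and 0.61 for their sense mRNAs. Across the 36 pairs, which share both libraries, the log2 ratios had a Spearman correlation of 0.226. The minimum admitted most antisense RNAs through their Flag counts, so the balance of pairs and the medians are descriptions. With a minimum of 1 count the balance turned: of 170 pairs, 16 had the antisense RNA higher and 23 lower.

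DNAJC9-AS1 (ENSG00000236756), paired by name with the gene of the co-chaperone and histone chaperone DNAJC9, had the highest lower bound of all 149. It had 207 Flag and 0 IgG counts, or 37.6 CPM against a floor of 0.879 CPM. Its ratio against that floor was 42.8, with 34.5 as the lower limit of the interval. DNAJC9 had 156 Flag and 62 IgG counts, a ratio of 1.56 (1.16 to 2.13). An odds ratio of at least 21.1 followed, the lower limit of its interval. The counts of DNAJC9-AS1 were fractional. MRPS16, a mitochondrial ribosomal protein gene that overlaps DNAJC9-AS1 in RefSeq, had 427 Flag and 65 IgG counts, a ratio of 4.08 (3.14 to 5.38). DNAJC9-AS1 summed with MRPS16 gave a ratio of 6.05 (4.69 to 7.94).

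KTN1-AS1 (ENSG00000186615) and KTN1, the gene of kinectin, an endoplasmic reticulum protein that binds kinesin, lay on opposite sides of 1. KTN1-AS1 had 25 Flag and 3 IgG counts, or 4.55 CPM against 0.879 CPM, and a ratio of 5.17 (1.58 to 26.8), which was not called. KTN1 had 24379 Flag and 65200 IgG counts, or 4434 CPM against 19104 CPM, a ratio of 0.232 (0.229 to 0.236), and was depleted. The odds ratio was 22.3 (6.80 to 115.3), and both counts were whole. In RefSeq the 2 genes do not overlap.

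PINK1-AS (ENSG00000117242) overlaps both PINK1, the gene of a mitochondrial kinase of mitophagy, and DDOST, which encodes a subunit of the oligosaccharyltransferase of N-glycosylation. It had 241 Flag and 8 IgG counts, or 43.8 CPM against 2.34 CPM, a ratio of 18.7 (9.34 to 43.8). PINK1 had 96 Flag and 42 IgG counts, a ratio of 1.42 (0.978 to 2.09), so the odds ratio to PINK1 was 13.1 (5.80 to 33.5). DDOST had 3378 Flag and 112 IgG counts, a ratio of 18.7 (15.5 to 22.8), and the odds ratio to DDOST was 0.999 (0.482 to 2.40). PINK1-AS, with fractional counts, thus had the ratio of 1 of its overlapping neighbours and not of the other. How its reads were divided with DDOST was not tested.

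DYNLL1-AS1 (ENSG00000248008), next to the gene of a dynein light chain, had whole counts, 40 Flag and 4 IgG. Its ratio was 6.21 (2.24 to 23.9), and the call was lost with TMM scaling. DYNLL1 had 26 Flag and 20 IgG counts, a ratio of 0.807 (0.433 to 1.52), and the odds ratio was 7.52 (2.18 to 33.7). NEXN-AS1 had 19 Flag and 4 IgG counts, a ratio of 2.95 (0.980 to 11.9). NEXN, which encodes an actin-binding protein of muscle Z-discs, had 622 Flag and 809 IgG counts, a ratio of 0.477 (0.429 to 0.530), and the odds ratio was 6.17 (2.04 to 25.1). For NEXN-AS1 the pair differed although neither RNA was called.

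Among the other 5 pairs with the antisense RNA higher were those of SBF2-AS1, PXN-AS1, TMCC1-AS1 and FLG-AS1. The last 3 of these were named after their values were seen. FLG-AS1, with fractional counts, had an odds ratio of 1.65 (1.06 to 2.63) to FLG. It also overlaps HRNR in RefSeq, and its odds ratio to HRNR was 0.902 (0.574 to 1.44), so it was not higher than both. How its reads were divided was not tested. TMCC1-AS1 had 21 Flag counts against 0 IgG counts and thus passed the minimum through the Flag library alone. PXN-AS1 had 20 Flag counts and 1 IgG count, a ratio of 12.4 (1.99 to 514.6), and PXN, the gene of the focal adhesion protein paxillin, had a ratio of 1.49 (1.28 to 1.73).

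The 5 pairs with the antisense RNA lower had sense mRNAs that were higher in the Flag library with total counts. The ratios of COL18A1 (1.45) and SETD5 (1.61) lay below the median ratio of 1.93 over all genes. With the TMM log2 shift of -0.78 both fall below 1. C1RL-AS1 had 41 Flag and 25 IgG counts, or 7.46 CPM against 7.33 CPM, a ratio of 1.02 (0.604 to 1.75). C1RL, which encodes a protease related to complement C1r, had 299 Flag and 14 IgG counts, or 54.4 CPM against 4.10 CPM, a ratio of 13.3 (7.78 to 24.5). Set against it, the antisense ratio was 12.9-fold lower (5.91 to 29.2), with whole counts for both. By TPM the order within the pair turned: in the Flag library C1RL-AS1 stood at 4.42 TPM and C1RL at 28.8 TPM, and in the IgG library C1RL-AS1 stood at 5.87 TPM and C1RL at 2.31 TPM.

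WAC-AS1 had 76 Flag and 26 IgG counts, a ratio of 1.81 (1.15 to 2.95), while WAC, which encodes a WW domain adaptor, had 376 Flag and 53 IgG counts, a ratio of 4.40 (3.30 to 5.99). COL18A1-AS1 had 34 Flag and 36 IgG counts, a ratio of 0.586 (0.356 to 0.964), and COL18A1, the collagen gene from which endostatin is cut, had 1774 Flag and 757 IgG counts, a ratio of 1.45 (1.34 to 1.59). Pairs with HNRNPU-AS1, beside the gene of a nuclear RNA-binding protein, and SETD5-AS1, beside a chromatin regulator gene, gave odds ratios of 0.396 (0.176 to 0.95) and 0.387 (0.156 to 0.961). Their intervals nearly reached 1. RefSeq names SETD5-AS1 THUMPD3-AS1 and places it over THUMPD3 and not SETD5. SETD5-AS1 had 12 Flag counts against 12 IgG counts, THUMPD3 had a ratio of 3.16 (2.01 to 5.18), and the odds ratio to THUMPD3 was 0.199 (0.0715 to 0.550).

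**Figure D3:**
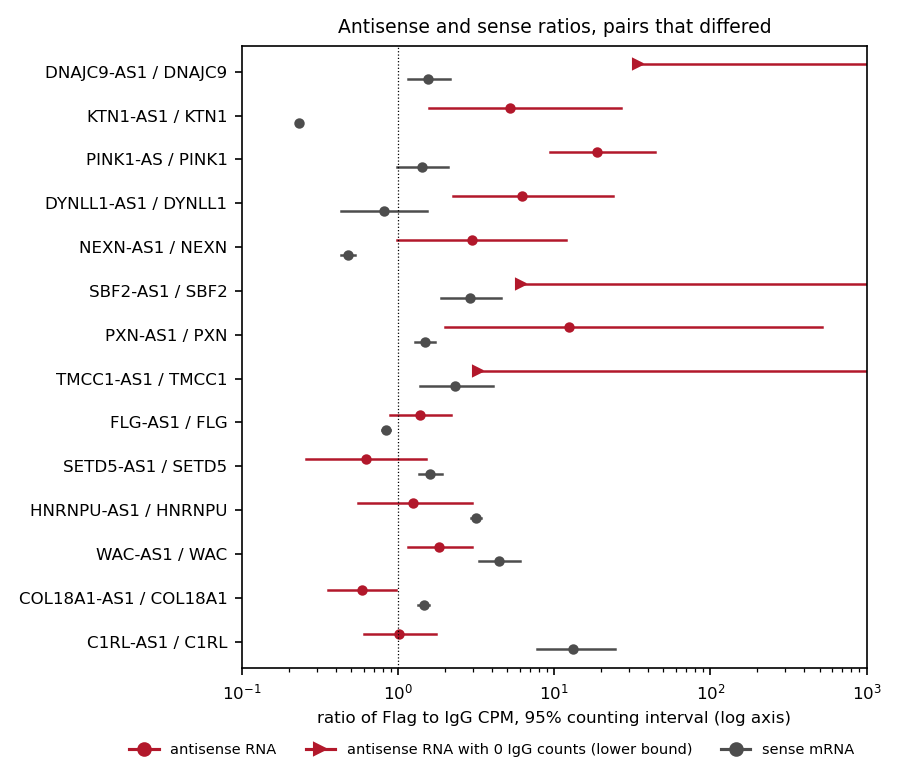
Ratio of Flag to IgG CPM (horizontal, log axis) with its 95% counting interval for the antisense RNA (red) and the sense mRNA (grey) of 14 pairs whose odds ratio interval left out 1. Triangles mark lower bounds for antisense RNAs with 0 IgG counts, and intervals that leave the axis are clipped; the 9 upper pairs have the antisense RNA to the right and the 5 lower pairs the sense mRNA.

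Levels per length within a pair were compared with TPM. The antisense RNA had the higher TPM in 8 of 36 pairs by Flag values and in 7 by IgG values, with 4 pairs in both. IL10RB-AS1, for example, stood at 24.1 TPM in the Flag library and at 8.97 TPM in the IgG library. IL10RB, the gene of its name, which encodes a cytokine receptor chain, stood at 9.12 TPM and 2.77 TPM. In RefSeq IL10RB-AS1 runs away from IL10RB and overlaps IFNAR2 and the joint gene IFNAR2-IL10RB. IFNAR2 stood at 8.78 TPM in the Flag library and at 7.94 TPM in the IgG library.

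Antisense RNAs whose annotated start faces that of a coding gene were then set apart. By symbol, 65 of the 149 matched the RefSeq gene table of GRCh38.p14, and 53 of these overlapped a coding gene. Since the deposited counts are named for another build, GRCh37, this table served for names and neighbours. Of 43 with a RefSeq start window, 20 had a coding gene's start head to head, 18 of them divergent. In 19 head-to-head pairs, of 18 members, both genes reached 20 counts. The antisense RNA was higher in 8 of these pairs (42.1%), lower in 2 (10.5%) and neither in 9. DNAJC9-AS1 stands among the 8 both with DNAJC9, at 112 bases, and with MRPS16, at 97 bases, so its counts enter more than once. The minimum acts on these pairs as on those by name. All 20 head-to-head members had a ratio above 1, with a median log2 ratio of 1.28. Of the 23 with a start window and no such neighbour, 20 had a ratio above 1, with a median of 1.17. Over all 10796 genes the ratio was above 1 for 8428, so the side of 1 is no trait of the head-to-head members. With TMM scaling the ratios of TUG1 and MCM3AP-AS1 were among those that fell below 1.

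The windows of 5 divergent pairs with the antisense RNA higher, chosen after their values were seen, are shown as the sequence that both RNAs of a pair start from. Each runs from 250 bases before to 50 bases after the antisense RNA's RefSeq start, 5′ to 3′ on the strand of the antisense RNA, and capitals mark the bases between the antisense start and the start of the coding gene. The windows are RefSeq's, of build GRCh38.p14. DNAJC9-AS1 faces DNAJC9 at 112 bases (chr10:73247117-73247416, plus strand), KTN1-AS1 faces KTN1 at 115 bases (chr14:55580043-55580342, minus strand), and DYNLL1-AS1 faces DYNLL1 at 167 bases (chr12:120495897-120496196, minus strand). TMCC1-AS1 faces TMCC1, an endoplasmic reticulum membrane protein gene, at 160 bases (chr3:129893621-129893920, plus strand). PXN-AS1 is named for PXN but faces RPLP0, the gene of a protein of the ribosomal stalk, at 180 bases (chr12:120201041-120201340, plus strand).
DNAJC9-AS1: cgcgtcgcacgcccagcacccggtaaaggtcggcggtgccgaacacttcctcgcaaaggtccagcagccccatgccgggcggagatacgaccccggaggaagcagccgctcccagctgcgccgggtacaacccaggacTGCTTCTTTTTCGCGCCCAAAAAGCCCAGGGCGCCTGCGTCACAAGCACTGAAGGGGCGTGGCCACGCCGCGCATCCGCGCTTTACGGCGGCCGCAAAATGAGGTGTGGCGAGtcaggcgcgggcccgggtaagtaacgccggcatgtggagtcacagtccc
KTN1-AS1: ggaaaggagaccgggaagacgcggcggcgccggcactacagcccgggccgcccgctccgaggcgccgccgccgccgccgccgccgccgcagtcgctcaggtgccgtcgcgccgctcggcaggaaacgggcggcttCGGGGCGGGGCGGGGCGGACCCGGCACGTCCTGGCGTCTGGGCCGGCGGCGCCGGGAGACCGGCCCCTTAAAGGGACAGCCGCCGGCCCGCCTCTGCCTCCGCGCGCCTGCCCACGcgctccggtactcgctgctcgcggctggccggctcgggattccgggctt
DYNLL1-AS1: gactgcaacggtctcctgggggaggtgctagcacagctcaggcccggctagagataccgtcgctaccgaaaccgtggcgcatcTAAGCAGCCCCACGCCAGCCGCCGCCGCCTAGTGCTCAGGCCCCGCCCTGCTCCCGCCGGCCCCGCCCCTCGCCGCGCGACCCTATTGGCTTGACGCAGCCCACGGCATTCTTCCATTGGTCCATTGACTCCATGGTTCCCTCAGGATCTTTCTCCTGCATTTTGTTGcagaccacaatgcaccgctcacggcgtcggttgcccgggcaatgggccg
TMCC1-AS1: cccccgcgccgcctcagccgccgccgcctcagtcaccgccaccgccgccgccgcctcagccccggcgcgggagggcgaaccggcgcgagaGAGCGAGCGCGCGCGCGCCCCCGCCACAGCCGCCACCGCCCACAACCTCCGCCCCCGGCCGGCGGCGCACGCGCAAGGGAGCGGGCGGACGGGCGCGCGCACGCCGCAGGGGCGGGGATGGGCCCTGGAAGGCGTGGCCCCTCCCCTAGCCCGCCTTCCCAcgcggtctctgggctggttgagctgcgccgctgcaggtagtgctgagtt
PXN-AS1: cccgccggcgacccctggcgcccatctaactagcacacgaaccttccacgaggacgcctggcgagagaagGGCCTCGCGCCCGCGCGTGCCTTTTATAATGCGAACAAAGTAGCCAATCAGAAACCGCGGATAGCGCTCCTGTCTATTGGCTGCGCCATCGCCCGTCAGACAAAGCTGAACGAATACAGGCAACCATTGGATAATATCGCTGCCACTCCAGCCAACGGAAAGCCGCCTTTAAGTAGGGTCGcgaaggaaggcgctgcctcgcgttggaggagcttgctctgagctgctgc

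These windows hold 35 (DNAJC9-AS1), 54 (KTN1-AS1), 27 (DYNLL1-AS1), 49 (TMCC1-AS1) and 29 (PXN-AS1) CpG dinucleotides. Over the 21 distinct windows of the 20 head-to-head members the median was 31, against 14 over all 35116 start windows, and the median G+C content was 70.3% against 58.7%. The letters GGGCGG, searched on both strands, were found in 95.2% of the head-to-head windows and 45.0% of all windows. CCAAT was found in 42.9% and 34.6%, and TATAAA in 4.76% and 11.5%. A match is a run of letters and not a binding site, and the windows were compared without a test.

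RPLP0 had 696 Flag and 792 IgG counts, a ratio of 0.545 (0.492 to 0.605), and the odds ratio of PXN-AS1 to it was 22.7 (3.62 to 944.5), with whole counts for both. To PXN it was 8.33 (1.32 to 347.1). Among head-to-head partners that the name does not give, FGD5-AS1 faces NR2C2, a nuclear receptor gene, and MCM3AP-AS1 faces LSS, the gene of lanosterol synthase. The odds ratios were 1.97 (1.16 to 3.36) for FGD5-AS1 over NR2C2 and 2.06 (1.00 to 4.45) for MCM3AP-AS1 over LSS. TUG1 and MORC2 were one of the pairs with the antisense RNA lower: TUG1 had a ratio of 1.31 (0.991 to 1.73), and MORC2, which encodes an ATPase of gene silencing, had a ratio of 4.32 (3.24 to 5.86).

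A few RNAs that carry the antisense label are structural RNAs, and they held most of the counts. RN7SL1, a gene of the 7SL RNA of the signal recognition particle, had 62627 Flag and 57017 IgG counts, or 11391 CPM against 16706 CPM. Its ratio was 0.682 (0.674 to 0.690). With TMM scaling it was called depleted. Its counts were fractional, and RN7SL1 summed with its near-identical copy RN7SL2 gave 0.691 (0.685 to 0.697).

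RPPH1, the RNA subunit of RNase P, had 10589 Flag and 7140 IgG counts, a ratio of 0.921 (0.893 to 0.949). RN7SL1 and RPPH1 together made up 88.0% of the members' Flag counts and 93.1% of their IgG counts. All antisense rows made up 1.57% of the Flag and 2.06% of the IgG counts. The members pooled had a ratio of 0.749, those without RN7SL1, RPPH1 and SCARNA9 had 1.32 (1.27 to 1.36), and those without KCNQ1OT1 as well had 2.52 (2.40 to 2.65). With total counts the pooled ratio of the class thus lay below 1 with RN7SL1, RPPH1 and SCARNA9 in it and above 1 without them. Of the single ratios 128 of 149 lay above 1, beside 8428 of all 10796 genes. The side of 1 depends on the scaling, since the TMM log2 shift of -0.78 applies to pooled ratios too.

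The 4 depleted RNAs were KCNQ1OT1, SCARNA9, AC011558.5 and RP11-161H23.5. KCNQ1OT1 (ENSG00000269821), a long nuclear RNA of the imprinted KCNQ1 locus that silences neighbouring genes in cis on the paternal allele, was the most abundant after RN7SL1 and RPPH1. It had 1962 Flag and 2725 IgG counts, or 357 CPM against 798 CPM, so the Flag level was 2.24-fold lower (2.11 to 2.37). The call was lost by TPM with a pseudocount of 1. KCNQ1, in which it lies, had 0 counts in both libraries.

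SCARNA9, a small Cajal body RNA that guides the modification of spliceosomal RNA, had 33 Flag and 69 IgG counts and was 3.37-fold lower (2.19 to 5.27). Its host KIAA1731, with 102 Flag and 114 IgG counts, had a ratio of 0.555 (0.421 to 0.732). By TPM KIAA1731 went the other way, with 7.0 TPM in Flag against 4.27 TPM in IgG. The SCARNA9 ratio was below that of its host, with an odds ratio of 0.536 (0.315 to 0.898). AC011558.5 had 5 Flag and 25 IgG counts and was 8.06-fold lower (3.03 to 26.9), and RP11-161H23.5 had 20 Flag and 49 IgG counts and was 3.95-fold lower (2.30 to 7.01). Both had fractional counts. With 99% intervals SCARNA9 and RP11-161H23.5 lost their calls. By upper bound RN7SL1 came next, then RP11-496I9.1 with a ratio of 0.359 and RP11-473M20.7 with 0.459. These were not called, though RP11-496I9.1 was depleted with TMM scaling.

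Among the enriched RNAs, DLGAP1-AS1 (ENSG00000177337) came next after DNAJC9-AS1 by lower bound. It had 348 Flag and 7 IgG counts, or 63.3 CPM against 2.05 CPM and 35.2 TPM against 1.14 TPM, and was 30.9-fold higher (14.8 to 77.3) with whole counts. DLGAP1-AS2, named after its values were seen, is annotated in the same gene and had 160 Flag and 20 IgG counts, a ratio of 4.97 (3.11 to 8.35). DLGAP1 itself, the gene of a scaffold protein of synapses, had 5 Flag and 5 IgG counts. With so few counts DLGAP1 did not enter, and no odds ratio was formed. The call of DLGAP1-AS2 was lost with TMM scaling.

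GS1-251I9.4, which RefSeq names OTUD6B-AS1, had 112 Flag and 3 IgG counts, a ratio of 23.2 (7.73 to 114.1). SBF2-AS1 had 38 Flag and 0 IgG counts, a ratio of 7.86 against the floor, with a lower limit of 6.09 and fractional counts. SBF2, which encodes a myotubularin-related pseudophosphatase, had a ratio of 2.87 (1.88 to 4.53). By TPM SBF2 was not higher in Flag, with 7.38 TPM against 8.11 TPM in IgG. ZNRD1-AS1, in the major histocompatibility region, had 28 Flag and 0 IgG counts, a ratio of 5.79 against the floor, with a lower limit of 4.41. ZNRD1, a gene of an RNA polymerase I subunit, had 29 Flag and 2 IgG counts. Both RNAs of this pair met the minimum through the Flag library alone, so their standing high together is no result.

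The clone-named AC007620.3 had 117 Flag and 4 IgG counts (18.2, 6.91 to 67.7, fractional), AC108488.3 had 68 Flag and 2 IgG counts (21.1, 5.62 to 177.8), and AC018737.1 had 28 Flag and 0 IgG counts. RP11-20I23.8 had 402 Flag and 53 IgG counts, a ratio of 4.71 (3.53 to 6.39), and RP11-20I23.13, of the same clone, had 192 Flag and 19 IgG counts, a ratio of 6.27 (3.91 to 10.6). Both had fractional counts. IL10RB-AS1, with 273 Flag and 63 IgG counts, had a ratio of 2.69 (2.04 to 3.60), and IL10RB had a ratio of 3.29 (1.94 to 5.89). The call of IL10RB-AS1 was lost with TMM scaling.

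Of a list of 48 antisense and related RNAs with a described role, 39 were in the files, 26 of them typed antisense, and 11 met the minimum. Of these 5 were enriched, 1 was depleted and 5 were neither, beside 28.7% enriched and 1.32% depleted over all genes, and the median log2 ratio was 0.70 against 0.95 over all genes. ZFAS1, a host gene of C/D box snoRNAs, had 143 Flag and 18 IgG counts, or 56.1 TPM against 7.11 TPM, a ratio of 4.93 (3.01 to 8.56). AFAP1-AS1, an RNA known to be raised in several carcinomas, had 611 Flag and 158 IgG counts, a ratio of 2.40 (2.01 to 2.88), and its sense gene AFAP1, of an actin filament binding protein, had 1.91 (1.48 to 2.49). FGD5-AS1 had 174 Flag and 36 IgG counts, a ratio of 3.0 (2.09 to 4.42).

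EGFR-AS1 had 24 Flag counts and 1 IgG count, a ratio of 14.9 (2.43 to 612.6), and EGFR, the epidermal growth factor receptor gene, was enriched too, with 4172 Flag and 625 IgG counts and a ratio of 4.14 (3.81 to 4.51). SBF2-AS1 was the fifth enriched member of the list and KCNQ1OT1 the depleted one. With TMM scaling the calls of ZFAS1, AFAP1-AS1, FGD5-AS1 and EGFR-AS1 were lost. TUG1, which has been described with Polycomb complexes, had 164 Flag and 78 IgG counts and was not called, nor were THAP9-AS1 (1.30, 0.748 to 2.34), TTN-AS1 (0.621, 0.244 to 1.58), MCM3AP-AS1 and TP73-AS1.

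Listed RNAs outside the group include CDKN2B-AS1, the antisense RNA of the INK4 locus, with 3 Flag and 2 IgG counts. OIP5-AS1, a cytoplasmic RNA typed as a processed transcript, had 471 Flag and 41 IgG counts, a ratio of 7.13 (5.18 to 10.1). Other listed RNAs of that type went the other way: SNHG1 had 41 Flag and 68 IgG counts, a ratio of 0.374 (0.248 to 0.559). PVT1 had 24 Flag and 31 IgG counts, a ratio of 0.481 (0.270 to 0.846), and for DLEU2, at 1.42 (0.552 to 4.08), the interval reached 1. These were named after their values were seen. As the series title concerns the G1/S transition, antisense RNAs of cell cycle genes were listed too. Of these 24, 11 were in the files and 8 typed antisense, and MCM3AP-AS1 and TP73-AS1 met the minimum, with 0 enriched and 0 depleted and a median log2 ratio of 0.27. MCM3AP-AS1 had 34 Flag and 13 IgG counts, a ratio of 1.62 (0.835 to 3.35), and TP73-AS1 had 90 Flag and 62 IgG counts, a ratio of 0.901 (0.645 to 1.27). TP73-AS1 was depleted by TPM, with 3.03 TPM against 8.88 TPM.

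The HOX clusters, whose proteins set position along the body axis, are rich in antisense RNAs. Of 20 listed names, 17 were in the files, all typed antisense, and 6 met the minimum. The listed names HAGLR and HOXA10-AS, not found, are those that RefSeq gives HOXD-AS1 and HOXA-AS4, so these RNAs were listed under both names. Of the 6, 1 was enriched, 0 were depleted and 5 were neither, beside 28.7% enriched and 1.32% depleted over all genes. Their median log2 ratio was 0.84 against 0.95 over all genes. HOXB-AS3 (ENSG00000233101) had 49 Flag counts and 1 IgG count, or 40.1 TPM against 2.43 TPM, and a ratio of 30.4 (5.21 to 1226). HOXB6, which it overlaps, had 151 Flag and 37 IgG counts, a ratio of 2.53 (1.76 to 3.73), and the odds ratio was 11.9 (1.90 to 496.7).

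In the HOXA cluster, HOXA-AS2 overlaps HOXA3 and HOXA4, and HOXA-AS4 overlaps HOXA10. HOXA-AS2 had 29 Flag and 17 IgG counts, a ratio of 1.06 (0.563 to 2.05), against 2.99 (2.11 to 4.34) for HOXA3, an odds ratio of 0.356 (0.169 to 0.760). HOXA4 had 5 Flag and 7 IgG counts and did not enter. HOXA-AS4 had 28 Flag and 8 IgG counts, a ratio of 2.17 (0.965 to 5.52), and HOXA10 had 4.70 (3.42 to 6.59), an odds ratio of 0.464 (0.190 to 1.25) whose interval reached 1. HOTAIRM1 had 21 Flag and 10 IgG counts, a ratio of 1.30 (0.588 to 3.10).

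HOXC-AS2, with 26 Flag and 11 IgG counts, and HOXD-AS1, with 44 Flag and 7 IgG counts, had ratios of 1.47 (0.701 to 3.29) and 3.90 (1.74 to 10.3). HOTAIR, of the HOXC cluster, had 1 Flag count and 0 IgG counts, and HOTTIP had 0 in both. HOXA11-AS had 2 Flag and 9 IgG counts.

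**Figure D4:**
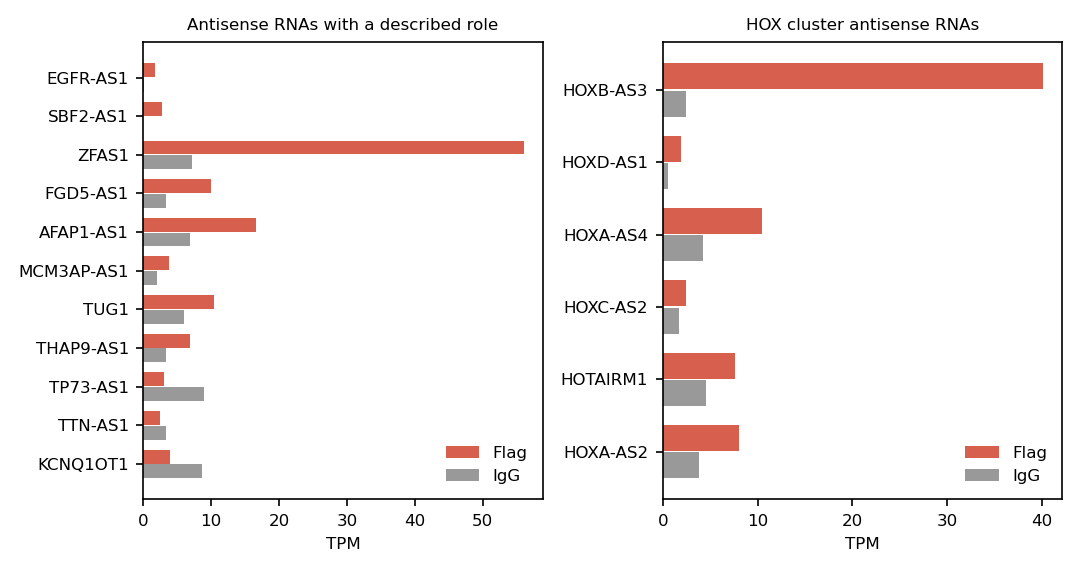
TPM in the Flag (red) and IgG (grey) library, 1 bar per library, for the 11 listed antisense RNAs with a described role (left) and the 6 of the HOX clusters (right), ordered by the ratio of Flag to IgG CPM from high to low. ZFAS1 (56.1 against 7.11 TPM) and HOXB-AS3 (40.1 against 2.43 TPM) have the longest Flag bars, while TP73-AS1, TTN-AS1 and KCNQ1OT1 have longer IgG bars.

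TPM and counts gave different ratios where the mean length of the transcripts counted differed between the libraries. Of the 135 members with counts in both, 79 had mean lengths within 5% of each other and 17 differed by over 1.5 times, 13 of them longer in the IgG library and 4 longer in the Flag library. TP73-AS1 had a mean length of 5536 bases in Flag and 2214 bases in IgG. ITGB2-AS1, with 21 Flag and 11 IgG counts, had 2282 bases against 610 bases and 1.80 TPM against 7.59 TPM, so its count ratio of 1.19 stood beside a TPM ratio of 0.247. The HOXA-AS2 transcripts were shorter in the Flag library, at 834 bases against 1475 bases, with 8.05 TPM against 3.84 TPM.

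In 6 members the TPM ratio and the count ratio lay on opposite sides of 1, namely C1RL-AS1, ITGB2-AS1, LINC00094, NOP14-AS1, RP11-443A13.5 and RP11-359B12.2, chosen after their values were seen. With few counts per transcript these lengths are estimates, and which transcripts were present was not tested. Across all 149 the log2 ratios by TPM and by counts had a Spearman correlation of 0.934.

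At the threshold, CASC2 (14 Flag counts, 6 IgG counts), CTB-55O6.12 (18 Flag counts, 2 IgG counts) and CTD-2047H16.4 (15 Flag counts, 5 IgG counts) lay just inside. RP11-517C16.2 (18 Flag counts, 1.61 IgG counts), RP1-20B21.4 (19.1 Flag counts, 0 IgG counts) and CTB-131K11.1 (13 Flag counts, 6 IgG counts) lay just outside. The 5127 antisense rows under the minimum, of which 932 had any count, held 3311 Flag and 1252 IgG counts together, a pooled ratio of 1.64 (1.54 to 1.75). Pooled rows under the minimum gave 1.79 (1.65 to 1.94) for lincRNAs, 1.44 (1.41 to 1.48) for protein-coding genes and 1.46 (1.43 to 1.49) for all types. Of the 1081 antisense rows with any count, 481 were detected with Flag alone and 189 with IgG alone, in libraries of unequal depth. In all, 892 antisense rows were detected in Flag and 600 in IgG, beside 16139 and 14361 genes of any type. Detection in 1 library alone was not counted over all genes, so the 481 and 189 are no result about antisense RNAs.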

How the data were processed

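The authors deposited expected counts, which are estimated counts, TPM, FPKM (not used) and transcript lengths, with the columns of RSEM gene tables per the file headers. The submitters' processing notes list STAR and RSEM, with no version, and hg19 and GRCh37 as builds. For strand setting, filters and annotation release the entry is: not given in the sources used here.

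Expected counts were rounded and divided by their totals (5498124 Flag, 3412864 IgG) to give CPM. Genes with at least 20 expected counts over both libraries entered. Ratios have exact 95% Clopper-Pearson intervals from the Flag share of the counts (SciPy 1.17.1), and odds ratios have conditional exact intervals. For 0 counts a floor of 3 counts was used (0.546 CPM Flag, 0.879 CPM IgG). With 1 library per group no p-value was computed, and calls compare these libraries. The calls were tested on simulated data.

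The named RNAs are the 10 enriched with the highest lower bound, the 10 with the lowest upper bound, the 10 with most counts, the 5 pairs at each end of the odds ratio, the listed described, HOX and cell cycle RNAs that entered, and the 3 nearest the threshold on each side. Others are said to be chosen after their values were seen, or are neighbours of these. A pair counted among those with the antisense RNA higher is not reported here by name. Members and lists were chosen with earlier results of these data known. Alternatives used edgeR 4.0.16 (TMM), DESeq2 1.42.0 (median of ratios), other thresholds and TPM with pseudocounts of 0.1 and 1.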

Additional observations from a re-analysis of the deposited data

How the results depend on the processing

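With 1 library per group and a median member CPM of 5.27 (Flag) and 2.34 (IgG), counting error limits most ratios. The 47 enriched RNAs became 22 under TMM scaling and 22 under median-of-ratios scaling, 15 at 100 counts (32 members), 24 with whole counts only (77 members), 85 by TPM with a pseudocount of 0.1, which has no interval, and 14 past 4-fold. The 4 depleted became 2 at 100 counts, 11 at 1 count (1049 rows), 2 with whole counts only, 8 by TPM with 0.1, 0 past 4-fold and 2 with 99% intervals. The median log2 ratio of 1.24 became 0.46 under TMM scaling and 0.45 under median-of-ratios scaling, 0.94 by TPM with a pseudocount of 1, and -0.10 at 1 count, where a row with 1 Flag count and 0 IgG counts enters at a ratio of 0.207, against the floor. Pairs with the antisense RNA higher, 10, became 3 at 100 counts (8 pairs), 16 at 1 count (170 pairs), 4 with whole counts, 6 with 99% intervals and 5 past 2-fold. Pairs with it lower, 5, became 1, 23, 3, 3 and 1 in the same settings, and 8 by TPM with either pseudocount. The cause was not tested, except that stricter minimums leave fewer RNAs. Without RN7SL1, RPPH1 and SCARNA9, a setting chosen after seeing the data, 47 were enriched, 3 depleted and the median was 1.25. In all 8 settings that keep the members, 14 of the 47 enriched and 0 of the 4 depleted kept their call. In the 6 settings that can change a ratio, the ratios of 47 named RNAs left their interval in 53 of 282 recomputations. No called ratio crossed 1, but ratios above 1 fell below it for 9 RNAs under TMM and the same 9 under median-of-ratios scaling: C1RL-AS1, CASC2, HNRNPU-AS1, HOTAIRM1, HOXA-AS2, HOXC-AS2, MCM3AP-AS1, THAP9-AS1 and TUG1. No paired analysis was possible because each group has 1 library and the labels carry no replicate numbers.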
